A study of Arabidopsis thaliana with 12 samples.

Results

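The 26 genes described here had low deposited ratios on the same pair of arrays, AK073675 replicate 1 and AK102323 replicate 1, and higher ratios on the other 10 arrays of the series. A gene was taken when its probe stood more than 0.5 on the log2 scale below the lowest of the other 10 arrays on both of these arrays, and when the probe is listed with 1 gene. Among 21494 probes measured on every one of the 12 arrays, 58 met the margin, which is 0.27%. Of the 9327 probes with 1 gene that could qualify, 26 met it, which is 0.279%, each for a different gene. The mirror of the rule, with both arrays more than 0.5 above the highest of the other 10, was met by 2 probes, or 0.0093%. The pollen genes VGD1, VGDH1, AT3G07850, AT3G14040 and AT5G15110 were left out from the start, and 0 of them met the margin. The genes were thus chosen by the ratios on these arrays, set against those on the other 10, so the low ratios are described and not tested.

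Each of the 12 Agilent arrays set shoot (aerial) RNA of an Arabidopsis thaliana line against wild-type Col-0 RNA, using a dye for each. The lines AK073675, AK102323, AK073210, AK073112, AK065297 and AK069096 are re-transformants that carry the rice full-length cDNA of that name, and each line has 2 arrays. All plants, Col-0 included, grew at 22 °C under 16 h of light and 8 h of dark. The age of the plants, their stage of flowering and the promoter that drives the cDNA were not stated in the sources used here. Nor do these say whether a line's arrays hold separate plants or separate transformants, so every p-value measures only the spread between arrays, which may be technical. A value is a log2 ratio between the dyes. Whether it is the line over Col-0 or Col-0 over the line is not settled, because the labelled dyes and the word order of the titles point opposite ways. "Low" therefore means a low deposited ratio and says nothing of which RNA held more of the transcript. The log base is also not stated; the values were read as log10 and converted, so every log2 value rests on that reading.

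The tapetum is the innermost cell layer of the anther wall. It feeds the developing pollen, makes the precursors of the tough outer pollen wall, and finally breaks down and leaves lipids and proteins on the grains as the pollen coat. Genes known for the tapetum encode sugar transporters, secreted lipases, lipid transfer proteins, beta-glucosidases and enzymes of sporopollenin and phenolamide synthesis. Of the 26 genes, 5 are on the tapetum and pollen wall list used here, and 0 are on the lists for anther formation and opening, mature pollen or floral organ identity. The label of anther genes thus rests on 5 of 26, and the other 21 are on none of these lists. Protein families given for them below are from general knowledge of the gene annotation. A ratio shows no level, so whether anthers were present in any of the RNAs cannot be read from these data.

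Over all 26 genes the median was -1.96 on AK073675 replicate 1 and -1.43 on AK102323 replicate 1. The other replicates of the same lines had medians of 0.16 and 0.43. AK073210 had the highest medians, 1.24 and 1.29 on its replicates, and AK073112 had 0.09 on replicate 1 and 0.85 on replicate 2. The medians were 0.06 and 0.11 in AK065297, and -0.05 and -0.08 in AK069096. The median of all probes was 0 on every array as deposited. In bulk aerial parts, fewer cells of a type and less RNA per cell cannot be told apart. The sources used here name no slide, scan or harvest, and what sets the arrays with low ratios apart was not tested.

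**Figure D1:**
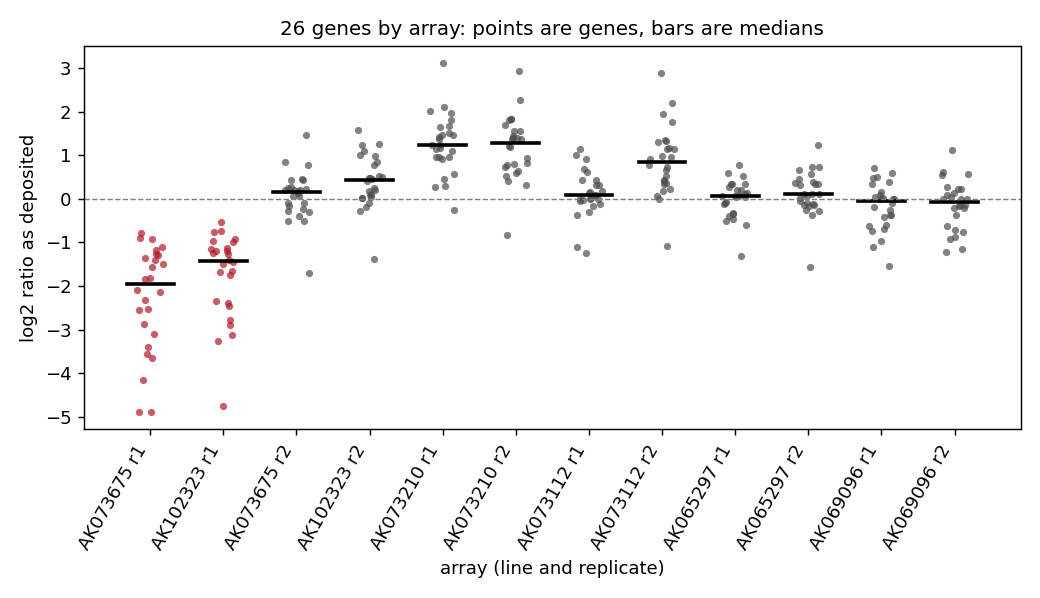
Log2 ratio as deposited (vertical axis) of the 26 genes on each of the 12 arrays, with a point per gene and a bar at the median; red marks the arrays that chose the genes. All 26 points lie below 0 on AK073675 r1 and AK102323 r1 (r = replicate), and 25 of 26 lie above 0 on each AK073210 array. The median of all probes was 0 on each array, and their share above 0 was not counted.

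The rule placed the second replicates of AK073675 and AK102323 among the other 10 arrays, so a gap between the replicates of these lines was fixed by the choice and is given for its size only. AK073675 replicate 1 minus replicate 2 had a median of -1.80 over the 26 genes, with a range of -5.35 to -0.67. AK102323 replicate 1 minus replicate 2 had a median of -1.75, ranging from -6.00 to -0.84. In the lines whose arrays did not choose the genes, the same median difference was 0.14 in AK073210, -0.55 in AK073112, -0.11 in AK065297 and 0 in AK069096. Over all probes the pair of arrays correlated at 0.48, against a median of 0.431 between arrays of different lines, which ran from 0.115 to 0.816. The probes that met the margin stayed in this correlation, so its height is partly fixed by the choice and is only described. Of the 26 genes 22 were lower on AK073675 replicate 1 than on AK102323 replicate 1, by a median of -0.39, and 7 differed by more than 1 between these arrays. The SD over all probes was 0.484 on AK073675 replicate 1 and 0.426 on AK102323 replicate 1. The shares of all probes were not counted, so these counts are only described.

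The distance from the higher of the 2 low values to the lowest of the other 10 is called the gap. It had a median of 0.71 over the 26 genes and reached 4.75, with 5 genes over 2 and 9 over 1. Just inside the margin were AT5G39220 with a gap of 0.56 and AT4G27790 with 0.57. Just outside were AT2G41550 with 0.47 and AT1G33430 with 0.46, and AT1G33430 is UPEX1, a pollen wall galactosyltransferase gene on the tapetum list. These are among 9 probes with 1 gene that had a gap between 0.25 and 0.5, so the margin does not fall in an empty stretch of values.

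**Figure D2:**
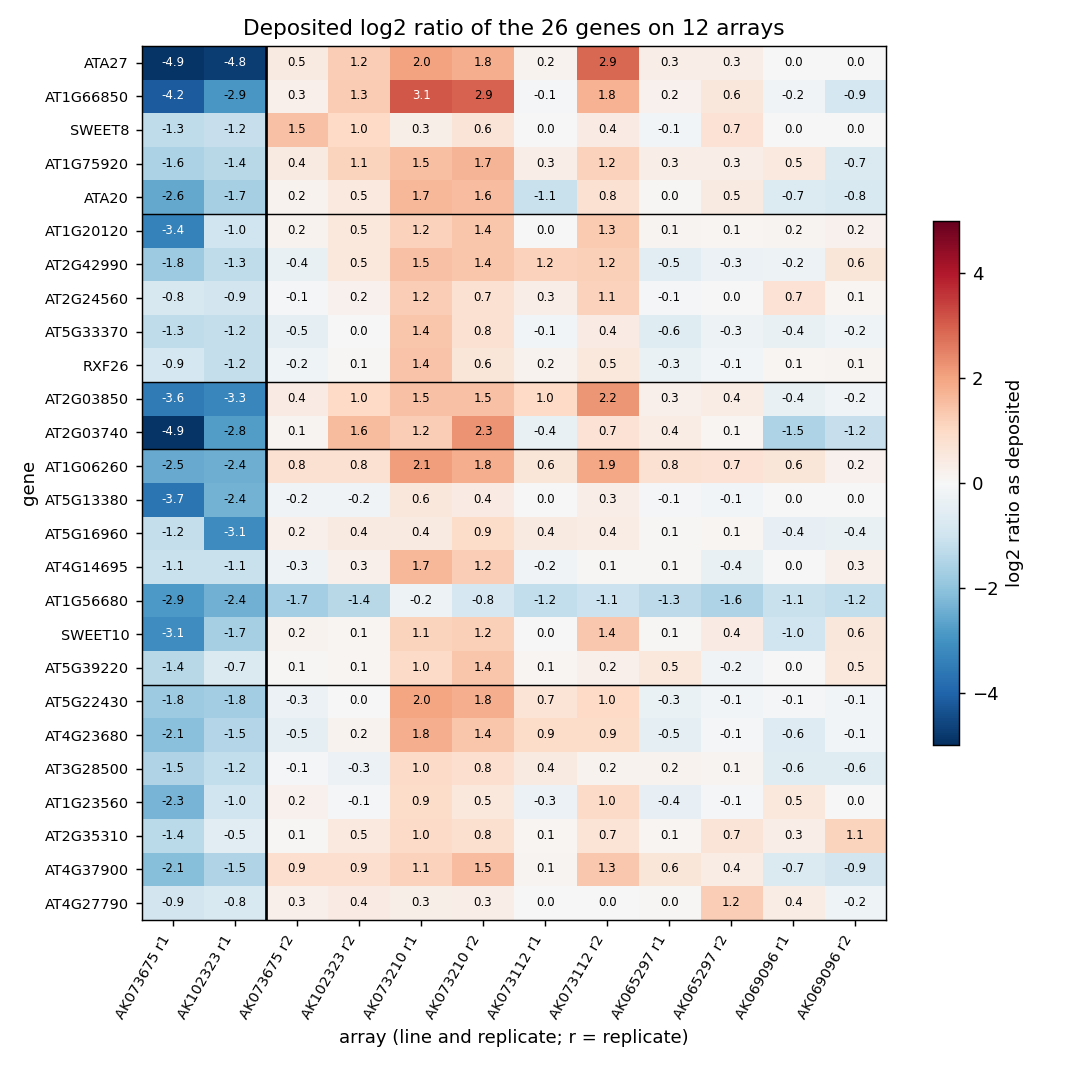
Log2 ratio as deposited of the 26 genes (rows) on the 12 arrays (columns; r = replicate), with the arrays that chose the genes left of the vertical line. Horizontal lines part, from the top, the 5 genes on the tapetum list, 5 further GDSL lipase genes, 2 LEA genes, 7 other enzymes and carriers and the remaining 7; AT1G56680 is below 0 on all 12 arrays.

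The beta-glucosidase gene ATA27, also called BGLU20 and first known as a tapetum transcript, had the largest gap. It stood at -4.88 on AK073675 replicate 1 and -4.75 on AK102323 replicate 1. On the second replicates of these lines it had 0.47 and 1.25. In the remaining lines, replicates 1 and 2 had 2.02 and 1.83 in AK073210, 0.19 and 2.89 in AK073112, and 0.35 and 0.32 in AK065297, and AK069096 was listed at exactly 0 on both. The groups thus lay 4.75 apart, with AK073112 replicate 2 the highest array. An exact 0 is a value the authors' program may have set, so the AK069096 values of this gene carry no order.

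AT1G66850, a gene of the lipid transfer protein family that moves lipids outside the cell, stood at -4.15 on AK073675 replicate 1 and -2.90 on AK102323 replicate 1. Replicate 2 of these lines had 0.26 and 1.26. The remaining arrays, replicate 1 before replicate 2, had 3.11 and 2.94 in AK073210, -0.06 and 1.76 in AK073112, 0.21 and 0.57 in AK065297, and -0.18 and -0.88 in AK069096. The AK073210 arrays were the highest and the AK069096 arrays were the lowest of the 10.

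SWEET8, also called RUPTURED POLLEN GRAIN1, is a sugar efflux transporter gene required for sound pollen walls. It stood at -1.29 on AK073675 replicate 1 and -1.16 on AK102323 replicate 1. The second replicates of the same lines gave its highest values of all, 1.46 in AK073675 and 1.0 in AK102323. The rest lay between -0.12, on AK065297 replicate 1, and 0.73, on AK065297 replicate 2, with 0.28 and 0.64 in AK073210, 0 and 0.43 in AK073112, and 0.04 on both AK069096 arrays. SWEET8 therefore did not share the high AK073210 ratios of the lipid transfer gene.

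AT1G75920, known as EXL5, encodes an extracellular lipase of the GDSL family found in the pollen coat. It stood at -1.57 on AK073675 replicate 1 and -1.40 on AK102323 replicate 1, with 0.44 and 1.10 on their second replicates. The other lines, replicate 1 before 2, had 1.51 and 1.70 in AK073210, 0.31 and 1.15 in AK073112, 0.35 on both arrays in AK065297, and 0.48 and -0.71 in AK069096. AK069096 replicate 2 alone set its gap of 0.69. EXL5 and ATA27 lie near each other on chromosome 1 with a single protein-coding gene between them, AT1G75930, which has no probe listed under its name.

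ATA20, an anther-specific gene for a glycine-rich protein, stood at -2.56 on AK073675 replicate 1 and -1.67 on AK102323 replicate 1. Replicate 2 of these lines had 0.19 and 0.49. The remaining lines had 1.65 and 1.55 in AK073210, -1.10 and 0.77 in AK073112, 0.05 and 0.46 in AK065297, and -0.68 and -0.77 in AK069096. Its gap of 0.57 was set by AK073112 replicate 1, whose ratio was on the negative side like both AK069096 arrays.

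The tapetum and pollen wall list holds 48 genes, of which 14 have a probe, and it shows that low ratios took more than a single form. With the 5 genes above, which the rule chose for low ratios on these arrays, SHT makes 6 probes of 14 below -1 on both. In addition, 4 were below -1 on AK073675 replicate 1 alone and 0 on AK102323 replicate 1 alone. The share of all probes below -1 was not counted, so the list counts here and below are only described. SHT, the spermidine acyltransferase gene that builds pollen coat phenolamides, stood at -3.39 on AK073675 replicate 1 and -3.72 on AK102323 replicate 1. It also stood at -3.14 and -1.50 in AK069096 and at -1.21 on AK073112 replicate 1. Its gap of 0.25 was set by AK069096 replicate 1 alone. AMS, the bHLH master regulator of tapetum development, stood at -2.51 on AK073675 replicate 1 and at 0.43 on AK102323 replicate 1, with the other 10 arrays between -0.67 and 1.44. The lipid transfer family genes AT5G62080 and AT5G52160 had the same form, with -2.48 and -1.76 on AK073675 replicate 1 and 0.79 and 1.02 on AK102323 replicate 1. UPEX1 (AT1G33430) stood at -1.31 and -0.41 on these arrays.

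The remaining tapetum list genes lay between -0.97 and 0.36 on the arrays that chose the 26. The bHLH genes AT1G06170 (BHLH89) and AT2G31220 (BHLH10), partners of AMS and DYT1 in tapetum regulation, stood at -0.97 and -0.26 on AK073675 replicate 1 and at -0.59 and 0.04 on AK102323 replicate 1. AT5G07230, the A9 gene often used to drive tapetum expression, had -0.10 and 0.08, and its 12 values lay between -0.28 and 0.22. AT3G52130, of the lipid transfer family, had -0.25 and 0.36. Of the genes for anther formation, SPL stood at -0.33 and -0.41, EMS1 at -0.16 on both arrays, ROXY1 at 0.01 and 0.13, and ROXY2 was listed at exactly 0 on both. In the mature pollen list 0 of 9 probes were below -1 on both arrays, and 2 were below -1 on AK073675 replicate 1 alone. These were the pectin methylesterase gene VGD1, at -1.51 on AK073675 replicate 1 and 0.47 on AK102323 replicate 1, and VGDH1, of the same family, at -1.21 and -0.75, whose second-replicate values were -1.03 in AK073675 and -1.22 in AK102323. The floral identity list has 1 probe, for SPT, at 0.58 and -0.03, and the seed storage list has 0.

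**Figure D3:**
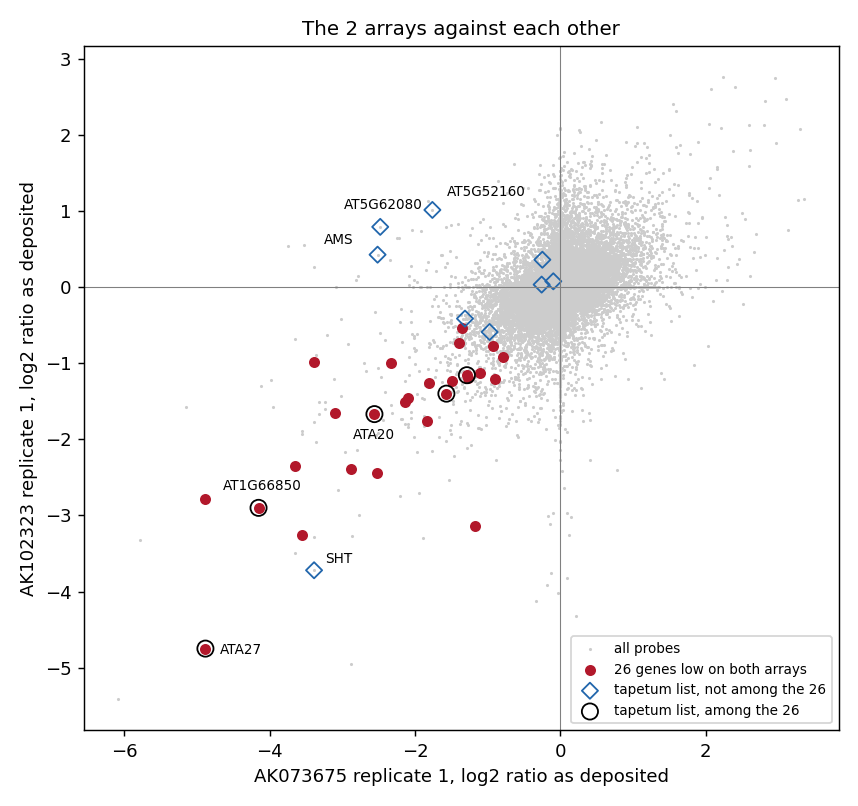
Log2 ratio as deposited on AK073675 replicate 1 (horizontal axis) against AK102323 replicate 1 (vertical axis), with all probes in grey, the 26 genes in red, tapetum list genes among them ringed and the other 9 tapetum list probes as open diamonds. AMS, AT5G62080 and AT5G52160 are low on the horizontal axis only, while SHT is low on both and stayed out because of its AK069096 replicate 1 value.

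GDSL lipases, secreted enzymes that cut or join lipid esters of cuticles and pollen coats, make 6 of the 26 genes, EXL5 included; this grouping was made after the values were seen. AT1G20120 had -3.39 on AK073675 replicate 1 and -0.98 on AK102323 replicate 1, the most uneven of them. Its other values were 0.19 and 0.51 on the second replicates of these lines, 1.16 and 1.40 in AK073210, 0.03 and 1.32 in AK073112, 0.13 and 0.11 in AK065297, and 0.15 and 0.22 in AK069096, so all 10 lay on the positive side. AT2G42990 had -1.81 and -1.26 on the chosen arrays, then -0.38 and 0.51 on their second replicates, 1.47 and 1.38 in AK073210, 1.16 and 1.17 in AK073112, -0.52 and -0.28 in AK065297, and -0.25 and 0.62 in AK069096. Both AK073112 arrays were high for this gene, unlike for ATA27, where only replicate 2 was. The other 3 were AT2G24560 at -0.79 and -0.92, AT5G33370 at -1.27 and -1.19, and RXF26 at -0.89 and -1.20. Each of these had its highest value of the other 10 on AK073210 replicate 1, at 1.25 for AT2G24560, 1.38 for AT5G33370 and 1.41 for RXF26.

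AT2G03850 and AT2G03740, of the late embryogenesis abundant (LEA) family of hydrophilic protective proteins, were among the lowest. AT2G03850 had -3.55 on AK073675 replicate 1 and -3.26 on AK102323 replicate 1, against 0.43 and 0.99 on the second replicates, 1.47 and 1.46 in AK073210, 1.01 and 2.20 in AK073112, 0.26 and 0.35 in AK065297, and -0.38 and -0.16 in AK069096. AT2G03740 had -4.88 and -2.78 on the chosen arrays, against 0.14 and 1.59 on their second replicates, 1.24 and 2.26 in AK073210, -0.38 and 0.74 in AK073112, 0.35 and 0.08 in AK065297, and -1.53 and -1.16 in AK069096. The AK069096 arrays were the lowest of the 10 for both genes. They lie on chromosome 2 with 12 protein-coding genes between them. Of those, 3 have a named probe, AT2G03750, AT2G03780 and GEK1, with ratios of -0.16, 0.13 and 0.05 on AK073675 replicate 1 and of -0.24, 0.01 and -0.01 on AK102323 replicate 1, so the low ratios did not extend to the genes measured between the LEA genes.

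Among the other enzymes and carriers, the cysteine protease family gene AT1G06260 had -2.52 on AK073675 replicate 1 and -2.45 on AK102323 replicate 1. The other arrays were all positive, with 0.78 and 0.77 on the second replicates, 2.1 and 1.82 in AK073210, 0.61 and 1.94 in AK073112, 0.77 and 0.74 in AK065297, and 0.60 and 0.22 in AK069096. AT5G13380, of the GH3 family that joins amino acids to hormones such as auxin and jasmonate, had -3.65 and -2.35 on the chosen arrays. Elsewhere it stayed close to 0, with -0.17 and -0.18 on the second replicates, 0.56 and 0.41 in AK073210, an exact 0 and 0.35 in AK073112, -0.06 and -0.12 in AK065297, and exact zeros in AK069096. AT5G16960, of the zinc-binding dehydrogenase family, was the only gene of the 26 more than 1 lower on AK102323 replicate 1 than on AK073675 replicate 1, at -3.13 against -1.17. Its values on the other 10 arrays were 0.24 and 0.45 on the second replicates, 0.45 and 0.93 in AK073210, 0.44 and 0.36 in AK073112, 0.06 and 0.11 in AK065297, and -0.42 and -0.38 in AK069096.

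AT4G14695, of the mitochondrial pyruvate carrier family, had -1.11 on AK073675 replicate 1 and -1.13 on AK102323 replicate 1. The second replicates had -0.27 and 0.26, AK073210 had 1.66 and 1.22, AK073112 -0.16 and 0.06, AK065297 0.08 and -0.37, and AK069096 0.02 and 0.27, so only AK073210 was more than 0.5 from 0 among the 10. SWEET10, a sugar transporter gene, had -3.10 and -1.65 on the chosen arrays and lay between -0.98, on AK069096 replicate 1, and 1.36, on AK073112 replicate 2, on the others. AT5G39220, of the alpha/beta hydrolase family, had -1.40 and -0.73. AT1G56680, of the chitinase family, was the exception in being below 0 on all 12 arrays, with -2.87 and -2.40 on the chosen arrays and -1.71 to -0.25 on the others. Its second-replicate values were -1.71 in AK073675 and -1.37 in AK102323.

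Of the remaining 7 genes, AT5G22430 belongs to the Ole e 1 family, named for an olive pollen allergen. It had -1.83 on AK073675 replicate 1 and -1.76 on AK102323 replicate 1, against -0.30 and 0.03 on the second replicates, 1.97 and 1.80 in AK073210, 0.69 and 0.99 in AK073112, -0.34 and -0.13 in AK065297, and -0.10 and -0.14 in AK069096. AT4G23680, of the major latex protein family, had -2.10 and -1.46 on the chosen arrays, against -0.50 and 0.19 on the second replicates, 1.82 and 1.40 in AK073210, 0.92 on both AK073112 arrays, -0.47 and -0.10 in AK065297, and -0.63 and -0.15 in AK069096. Both genes thus ran low on the chosen arrays, high in AK073210, between in AK073112 and near or below 0 elsewhere. The acidic ribosomal P protein gene AT3G28500 had -1.49 and -1.23, REM23 (AT2G35310), of a family of reproductive meristem transcription factors, -1.35 and -0.53, and the EF-hand calcium-binding family gene AT4G27790 -0.92 and -0.77. AT1G23560 had -2.33 and -1.0, and AT4G37900 had -2.13 and -1.50.

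The other 10 arrays were not alike for these genes. An AK073210 array was the highest of the 10 for 19 of the 26 genes, replicate 1 for 13 and replicate 2 for 6, and AK073112 replicate 2 for 4. The lowest of the 10 was an AK069096 array for 12 genes, 6 on each replicate, and AK065297 replicate 1 for 6. The arrays also differ in spread, and the SD over all probes was 0.57 and 0.52 in AK073210 and 0.66 and 0.62 in AK069096. It was 0.68 on AK073112 replicate 2 and 0.43 on AK065297 replicate 1. How often each array was the highest or lowest over all probes was not counted, so these counts are only described. AK073112 replicate 2 was above replicate 1 for 23 of the 26 genes, by a median of 0.55, against a median difference of 0 over all probes. Over all probes this array correlated at 0.799 and 0.816 with the AK069096 arrays and at 0.352 with its own line's replicate 1. AK073112 replicate 1 correlated weakly with every array, from 0.115 to 0.352, so the latter was its highest value. AK073112 replicate 2 lay above both AK069096 arrays for 22 of the 26 genes, and the share of all probes for which it did so was not counted.

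The lines without a chosen array could be compared among themselves. The 8 arrays of AK073210, AK073112, AK065297 and AK069096 were fitted with limma over all 21494 probes, setting each line against the mean of 3 others, with Benjamini-Hochberg adjustment over all probes. The rule had read these arrays as part of the floor that the chosen arrays had to stay below. Genes about as low on any of them were thus left out, as SHT was through AK069096. This limits how low the 26 genes can stand in these lines, so the differences below are not free of the choice. AK073210 passed the threshold of 0.05 for 4 of the 26 genes, all on the positive side. Of all probes 1.09% passed in this comparison, and 0.73% passed on the positive side. AT5G22430 had a difference of 1.72 ± 0.13 (SE, n = 2 AK073210 arrays against 6; limma adjusted p = 0.0176), with line means of 1.88 in AK073210 and 0.16 in the other 3. AT4G23680 had 1.53 ± 0.20 (limma adjusted p = 0.0406), from 1.61 in AK073210 and 0.08 in the others. AT4G14695 had 1.46 ± 0.19 (limma adjusted p = 0.0416), from 1.44 in AK073210 and -0.02 in the others. AT3G28500 had 0.95 ± 0.11 (limma adjusted p = 0.0351), from 0.90 in AK073210 and -0.05 in the others. For these 4 genes the AK073210 arrays lay above all 6 arrays of the other lines.

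The difference was above 0 for all 26 genes, against 50.2% of all probes, and its median was 0.96, against 0.00144 for all probes. The largest differences were not those past the threshold. AT1G66850 had 2.79 ± 0.48 (limma adjusted p = 0.0701), AT2G03740 2.07 ± 0.39 (limma adjusted p = 0.0826) and ATA20 1.82 ± 0.47 (limma adjusted p = 0.148), with a wider spread between replicate arrays. SWEET8, at 0.28 ± 0.26, and AT4G27790, at 0.07 ± 0.33, were lowest. Of the 14 tapetum list probes 1 passed, AT5G62080 at 1.98 ± 0.21 (limma adjusted p = 0.0287), which is not among the 26, and the list's median was 1.29. Of the 9 mature pollen probes 5 passed, the pectin-modifying genes left out at the start, between 2.39 and 5.70. The others on that list, TUA1, ANX1, ACT12 and AT59, did not pass. Of the 4 anther formation probes 0 passed in the limma fit.

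**Figure D4:**
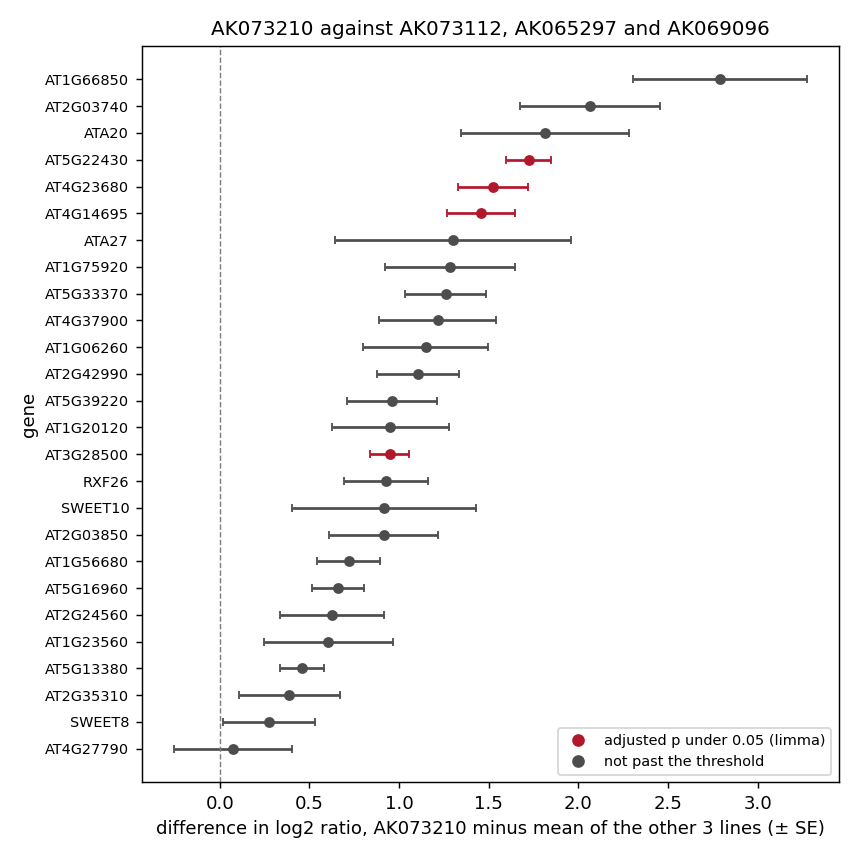
Difference in log2 ratio between AK073210 (2 arrays) and the mean of AK073112, AK065297 and AK069096 (6 arrays), on the horizontal axis, for each of the 26 genes (rows); bars are ± 1 SE of the limma fit and red marks adjusted p under 0.05. All 26 estimates lie above 0 and 4 are past the threshold, AT5G22430, AT4G23680, AT4G14695 and AT3G28500.

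In the same fit 0 of the 26 genes passed for AK073112, AK065297 or AK069096, where 0.00465%, 0.0093% and 0% of all probes passed. At an unadjusted p under 0.05 there were 19 of the 26 genes for AK073210, where 17.4% of all probes were under it. There were 5 genes for AK073112 (12.4% of all probes), 9 for AK065297 (11.9%) and 11 for AK069096 (14.2%). The median difference was 0.10 in AK073112, -0.47 in AK065297 and -0.67 in AK069096, where it was above 0 for 17, 5 and 1 of the 26 genes. These counts moved with the arrays in the fit. The AK073112 replicates differed most over all probes (SD of the replicate difference 0.701, against 0.459 in AK073210, 0.400 in AK065297 and 0.401 in AK069096). Without both AK073112 arrays, AK073210 passed for 12 of the 26 genes, all on the positive side, where 1.68% of all probes passed, and AK069096 passed for 12, all on the negative side, where 8.42% of all probes passed. The AK065297 count stayed at 0. The AK073210 count of 4 was 0 with the replicate block, where 3 of all probes passed. It fell when any AK073210, AK065297 or AK069096 array was left out and rose without either AK073112 array. The count over all probes did the same. With all 12 arrays in the fit, the replicate gaps of AK073675 and AK102323 enter the spread. AK073210 then passed for 0 of the 26 genes and 820 of all probes.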

How the data were processed

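Per the submitters' processing notes, the arrays were read with Agilent Feature Extraction 7.1.1. The authors deposited a single log ratio for each of 21500 probes on each array, taken here as log10 from its form (signed, with a median of 0 on each array); the sources used here do not state its base, its direction or how background and dyes were treated. Dividing the deposited values by 0.30103 gave log2 ratios. Channel intensities were not used here, so precision is limited by the number of arrays. Of the probes, 21494 have a value on all 12 arrays. Gene names came from the platform's probe list (9335 probes with 1 gene, 40 with several, 12125 with none). They were updated by gene ID through the TAIR10.1 gene table, and all 26 genes matched. Protein families of genes known by locus code were taken from general knowledge of the gene annotation, since these sources give names only.

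The rule was applied to all 12 arrays. Lines without a chosen array were compared with limma 3.58.1 in R 4.3.3 (lmFit, eBayes, two-sided, 4 residual degrees of freedom) on 8 arrays. The fit was tested on simulated arrays. The alternatives concerned the margin, scaling, exact zeros, the spread, probe averaging, the replicate block and each array left out. The 26 genes, the 5 gene lists and the tests were chosen with earlier results of these data known. Genes to name were those on a list and then those with the largest gap, which took in all 26; all 12 values were given for the first 15. Promoter and protein comparisons were not made, since sequences were not used here.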

Additional observations from a re-analysis of the deposited data

Results flagged for a closer look

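Among the lines without a chosen array, 4 of the 26 genes differed in AK073210 from the other 3 lines by the limma test of that difference: AT5G22430 by 1.72, AT4G23680 by 1.53, AT4G14695 by 1.46 and AT3G28500 by 0.95. The AK073210 arrays were the higher ones in each case. Over 16 alternative settings, AT5G22430 passed in 11, AT3G28500 in 8, AT4G14695 in 7 and AT4G23680 in 6, and the difference of each stayed on the positive side, with adjusted p-values between 0.014 and 0.193 over the 4 genes.

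The tapetum list gene AT5G62080 differed in the same comparison by 1.98. On the mature pollen list 5 probes passed in it, and these were the pectin-modifying genes left out at the start. With 2 arrays per line, a test for a single stray array within a line could not be made.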

How the results depend on the processing

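The count of 26 genes was 9 with a margin of 1, all of them among the 26, and 58 with probes of any annotation. It was 35 with a margin of 0.25, 27 with quantile normalization (25 of them shared), 33 with equal median absolute deviations and 26 with exact zeros as missing. Leaving out each array in turn gave 26 to 114; the rule then rests on a single array without AK102323 replicate 1 (114) or without AK073675 replicate 1 (54).

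For AK073210 against the other 3 lines, 4 of the 26 genes passed. The count was 0 with all 12 arrays, 0 with the replicate block, 2 with array weights and 12 without both AK073112 arrays, an alternative chosen after seeing the data. Leaving out a single array leaves 1 array in a line. The count fell without any AK073210, AK065297 or AK069096 array and rose without either AK073112 array, and the count over all probes did the same. In these fits the median difference over the 26 genes ran from 0.90 to 1.13. Over all probes the count of 235 was 820 with all 12 arrays, 3 with the replicate block, 135 with array weights, 642 without both AK073112 arrays and 0 to 2090 without single arrays. Whether same-numbered arrays share more than a number is not stated in the sources used here and was not tested. The replicate differences of 15 pairs of lines correlated at -0.07 to 0.17. They were over 0.1 in 2 pairs, the highest being AK073675 with AK102323. The probes that met the rule stayed in this correlation. The rule itself placed their replicate 1 below replicate 2 in both of these lines. The rank of this pair is thus partly fixed by the choice and says nothing of what same-numbered arrays share.

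For AK073112 the counts were 0 of 26 genes (0 to 3 without single arrays) and 1 of all probes (145 with all 12 arrays, 0 with quantile normalization or array weights, 0 to 3510 without single arrays). For AK065297 they were 0 (0 to 4) and 2 (76 with all 12 arrays, 7 with quantile normalization, 0 with the replicate block, 24 with array weights, 1 with a robust spread, 4 with zeros as missing, 14 without both AK073112 arrays, 0 to 1562 without single arrays). For AK069096 they were 0 (0 to 11; 12 without both AK073112 arrays) and 0 (26 with all 12 arrays, 1 with array weights, 3767 without both AK073112 arrays, 0 to 4417 without single arrays). The cause of these shifts was not tested. The AK073210 difference of AT4G27790, 0.07 and not past the threshold, was -0.049 without both AK073112 arrays and -0.13 to 0.27 without single arrays; no other of the 26 genes changed side under these settings.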

Other observations

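A further 32 probes met the same margin but are listed with no gene. They are 0.264% of the 12122 probes without a gene, close to the 0.279% of probes with 1 gene. Their gaps ran from 0.50 to 4.61 with a median of 0.97, and their ratios on AK073675 replicate 1 and AK102323 replicate 1 lay between -6.08 and -0.02. For 15 of the 32 the highest values of the other 10 arrays were those of the AK073210 arrays. The share of all probes with this order was not counted.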
